A study of Mus musculus with 2 samples.

Results

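Neutrophils of the tumour-bearing liver were followed through 10 genes that report on their maturation and on the state they take up in tumours: Siglecf, Cxcr2, Cxcr4, Retnlg, Mmp9, Stfa2l1, Cdkn1a, Bhlhe40, Scimp and Cd44. All 10 were found by symbol among the 31053 genes of the tables. Their unique molecular identifiers (UMIs, each tagging 1 captured mRNA) were summed per library over cells with at least 20 UMIs of S100a8 plus S100a9 and at least 2 UMIs of Retnlg, Cxcr2, Csf3r, Mmp9 and Hdc together, which was 705 of 6461 control cells and 550 of 8753 inhibitor cells. The genes were picked from an earlier reading of these same libraries, partly for how they differed, so their values are a description and no test is given.

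The series holds droplet single-cell RNA-seq of cells from hepatocellular carcinoma tissue of C57BL/6 mice aged 17 months, all of which had received the diet named CD-HFD over 15 months. One library came from control mice and the other from mice given an inhibitor of FABP5, a cytosolic fatty acid carrier, from month 13 on. The sources used here do not say how many mice went into either library or what control mice received instead, and with 1 library per group a difference between libraries cannot be told apart from one between animals, tumours or preparations. The carcinoma tissue was digested with collagenase and live cells were selected with an Annexin V kit according to the labels.

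Neutrophils mature in the bone marrow, leave it when CXCR2 signalling outweighs retention through CXCR4, and lose granule and surface proteins of their youth as they age in tissue. In tumours of several organs a long-lived state marked by the sialic acid-binding lectin Siglec-F has been described, which makes chemokines and lysosomal proteins. Siglec-F is also a classic marker of eosinophils, so the cells that carry it here were checked against eosinophil genes.

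The stretches around the transcription start of 4 members are shown because these genes mark opposite ends of the neutrophil population described below, Siglecf and Cdkn1a at one end and Retnlg and Stfa2l1 at the other. They run from 250 bases before to 50 bases after the start site, 5′ to 3′ along the gene, from RefSeq on GRCm38.p6 (plus strand in each case), and capitals mark a motif found by search on both strands. Siglecf lies at chr7:43351091-43351390, Retnlg at chr16:48872358-48872657, Stfa2l1 at chr16:36156561-36156860, and the upstream one of the Cdkn1a starts at chr17:29090729-29091028. In Siglecf the capitals are the reverse complement of GAGGAAG, the core bound by the myeloid factor PU.1, and in Retnlg they are TTNNGCAA, a form of the motif bound by C/EBP factors of the granulocyte lineage.
Siglecf: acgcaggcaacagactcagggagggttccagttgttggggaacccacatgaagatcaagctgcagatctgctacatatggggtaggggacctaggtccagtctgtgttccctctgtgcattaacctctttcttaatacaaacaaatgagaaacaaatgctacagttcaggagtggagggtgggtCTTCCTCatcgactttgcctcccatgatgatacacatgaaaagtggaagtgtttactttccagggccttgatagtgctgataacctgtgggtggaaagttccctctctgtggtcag
Cdkn1a: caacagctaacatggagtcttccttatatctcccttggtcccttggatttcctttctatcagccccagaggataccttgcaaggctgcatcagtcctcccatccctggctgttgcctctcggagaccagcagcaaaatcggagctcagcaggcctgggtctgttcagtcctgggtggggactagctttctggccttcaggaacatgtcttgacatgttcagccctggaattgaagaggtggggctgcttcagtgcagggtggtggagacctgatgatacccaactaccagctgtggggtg
Retnlg: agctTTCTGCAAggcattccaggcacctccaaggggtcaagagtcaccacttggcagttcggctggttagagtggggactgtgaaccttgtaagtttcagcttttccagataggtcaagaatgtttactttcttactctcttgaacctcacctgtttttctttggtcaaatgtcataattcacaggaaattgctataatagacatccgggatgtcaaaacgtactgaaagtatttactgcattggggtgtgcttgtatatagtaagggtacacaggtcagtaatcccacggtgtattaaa
Stfa2l1: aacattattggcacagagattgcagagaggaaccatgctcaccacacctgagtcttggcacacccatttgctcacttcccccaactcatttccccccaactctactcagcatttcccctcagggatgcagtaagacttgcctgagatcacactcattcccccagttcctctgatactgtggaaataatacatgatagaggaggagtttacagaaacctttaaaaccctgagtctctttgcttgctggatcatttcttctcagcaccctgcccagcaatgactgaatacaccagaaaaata
The sequence table matched 7 of the 10 members, and Mmp9, Bhlhe40 and Scimp are named only. The PU.1 core was present in 13.6% of 32851 promoter stretches of this length, the C/EBP motif in 10.8%, the AP-1 motif TGANTCA in 7.81%, the E-box CACGTG in 7.15% and the hypoxia response core ACGTG, which the E-box contains, in 19.6%. Beside the hits shown, Cd44 held a PU.1 core and a hypoxia response core, and the stretches of Cxcr2, Cxcr4, Cdkn1a and Stfa2l1 held none of these letters. A match describes the sequence and is no binding site by itself.

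The gate genes were high by construction. S100a8 and S100a9, alarmins of the neutrophil cytosol, stood at 42158 and 42629 CPM (counts scaled to 1000000 UMIs) in the control and at 54570 and 55947 CPM in the inhibitor library, and Csf3r, the G-CSF receptor, at 2162 and 2299 CPM. Of neutrophil genes outside the gate, G0s2 was at 3420 and 2249 CPM and Il1r2, a decoy receptor for interleukin 1, at 768 and 597 CPM. Of the 7 eosinophil genes, Epx, Prg3, Il5ra, Ear1 and Ear6 had 0 UMIs in gated cells of both libraries. No cell took the eosinophil type, but a cell of the neutrophil gate could not take it, so this is no check on gated cells. Ccr3, the eotaxin receptor, had 9 UMIs in control and 22 in inhibitor gated cells, and 9 and 5 in core cells. Prg2, an eosinophil granule gene, had 100 UMIs in gated but 2 in core control neutrophils. A single cluster held most gated cells, 685 of 705 and 525 of 550. Some deep cells of other kinds also passed the gate, so a stricter set was formed after the data had been seen: cells of that cluster which passed no other marker gate, called core neutrophils here, 679 and 524 of them. The 26 other gated cells in each library held 15.0% and 21.9% of the gated UMIs. The 10 monocyte genes checked summed to 768 and 1733 CPM in gated cells and to 388 and 453 CPM in core cells, and the 10 macrophage genes to 2474 and 2412 CPM and to 1182 and 627 CPM. Values of both sets are therefore given where they differ.

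The gate took in 10.9% of the control library's cells (exact 95% interval 10.2 to 11.7) and 6.28% of the inhibitor library's (5.78 to 6.81), with 1632291 and 1130360 UMIs in all and medians of 1998 and 1665.5 UMIs per cell. Median mitochondrial shares were 1.86% and 0.559%. The 12 hepatocyte secreted genes, which neutrophils do not make, took 0.297% of core UMIs in the control and 0.0300% in the inhibitor library, all 12 of them lower in the latter. Of the barcodes, 29 occurred in both libraries and none of these was a gated neutrophil. CPM intervals are exact 95% Poisson intervals, ratio intervals are exact conditional binomial, and all cover counting error only.

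Between the libraries the members formed 3 sets. Siglecf, Cdkn1a, Bhlhe40 and Scimp were lower in inhibitor neutrophils, Stfa2l1 and Cd44 were higher, and Cxcr2, Cxcr4, Retnlg and Mmp9 differed by less than 1.5-fold, the fold used for a call. Of all 6737 genes with at least 20 UMIs in gated cells, 11.7% were at least 1.5-fold higher and 13.3% at least 1.5-fold lower in the inhibitor library. In core cells these shares were 5.71% and 21.4% of 5620 genes, and the median gene there had a log2 ratio of -0.13, so a core ratio is read against that shift. The members were counted as 2 higher and 4 lower in both sets, but since they were chosen with such values known nothing is read from that count.

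**Figure D1:**
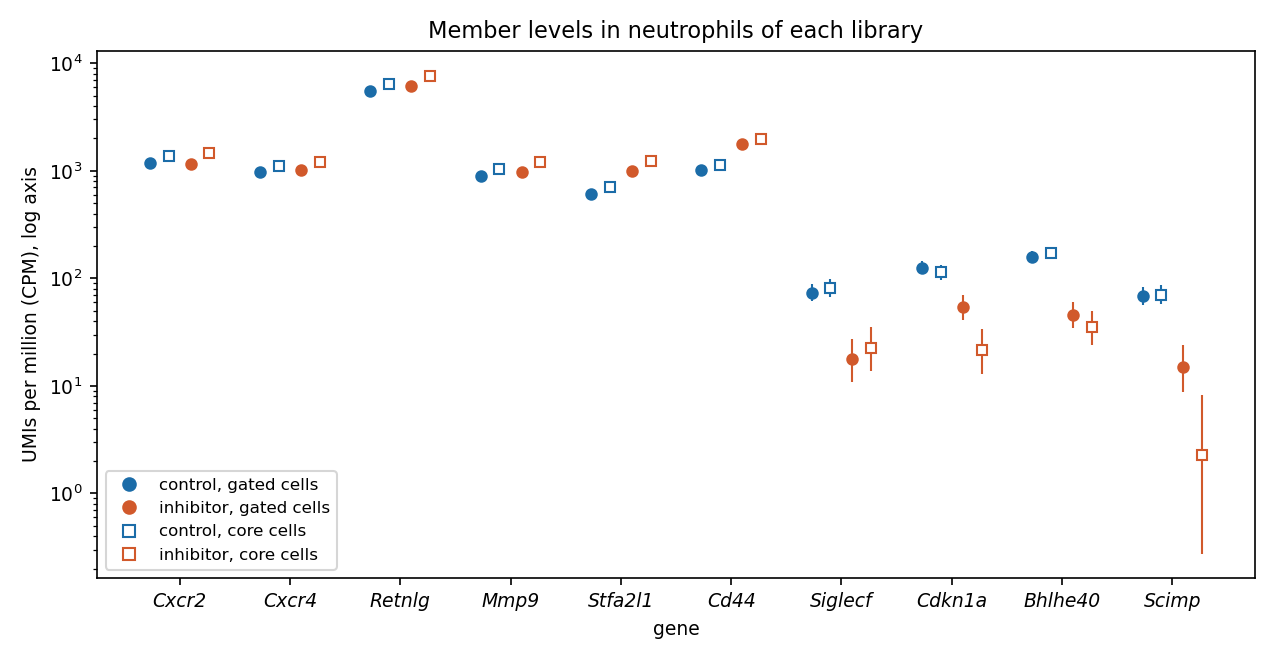
Level of each member in CPM (log axis) in gated neutrophils (filled circles) and core neutrophils (open squares) of the control (blue) and inhibitor (orange) libraries, with exact 95% Poisson bars. Siglecf, Cdkn1a, Bhlhe40 and Scimp sit between 69.2 and 174 CPM in the control and between 2.26 and 54.0 CPM in the inhibitor library, while Retnlg is between 5492 and 7635 CPM in both.

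Summed over all gated cells, the chemokine receptors and the marker genes of the mature neutrophil were the steady members. In core cells all of them but Cxcr2 were higher in the inhibitor library beyond counting error. Cxcr2 (ENSMUSG00000026180, chr1:74153989-74161246, + strand), the receptor that draws neutrophils toward CXCL1 and CXCL2, was at 1181 CPM (1128 to 1234) in control and 1166 CPM (1104 to 1231) in inhibitor neutrophils, with a log2 ratio of -0.02 (-0.12 to 0.08). Cxcr4 (ENSMUSG00000045382, chr1:128588199-128592293, - strand), which binds CXCL12 and holds neutrophils in the marrow, was at 984 and 1009 CPM, with a log2 ratio of 0.04 (-0.08 to 0.15). The intervals of both receptors overlapped between the libraries, and at equal depth the shares of cells with a UMI were also close. After each cell had been thinned to 1000 UMIs, 69.0% and 70.9% of neutrophils held a Cxcr2 UMI and 57.2% and 58.4% a Cxcr4 UMI. In core cells, where the median gene was at -0.13, the log2 ratio was 0.09 (-0.01 to 0.19) for Cxcr2. That of Cxcr4 was 0.14 (0.02 to 0.25).

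Retnlg (ENSMUSG00000022651, chr16:48872621-48874496, + strand) encodes a resistin-like protein of granulocytes and stood at 5492 CPM (5379 to 5607) and 6087 CPM (5944 to 6233), with a log2 ratio of 0.15 (0.10 to 0.19). Its spread over cells differed more than its sum. In the control library 58.7% (54.9 to 62.4) of thinned neutrophils held a Retnlg UMI, against 79.8% (76.2 to 83.2) in the inhibitor library, so the control UMIs came from fewer cells. Mmp9 (ENSMUSG00000017737, chr2:164940780-164955850, + strand), a gelatinase of the tertiary granules, was at 902 and 965 CPM with a log2 ratio of 0.10 (-0.02 to 0.21). The core log2 ratios were 0.25 (0.20 to 0.30) for Retnlg and 0.22 (0.10 to 0.34) for Mmp9. In thinned T cells, which should lack these genes, 0.143% of control cells held a Retnlg UMI and 0.143% a Cxcr2 UMI, far below the neutrophil shares.

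Stfa2l1 and Cd44 were the members that were higher in the inhibitor library. Stfa2l1 (ENSMUSG00000059657, chr16:36156811-36161953, + strand), a stefin A-like inhibitor of cysteine cathepsins, was at 614 CPM (577 to 654) in control and 986 CPM (929 to 1046) in inhibitor cells, 1.61-fold higher (log2 0.68, 0.56 to 0.81). Of the windows of 31 bases in its last 300 transcript bases, 37.4% also occur in other transcripts, mainly Stfa2, so reads of these neighbours may have been divided between them. Cd44 (ENSMUSG00000005087, chr2:102811141-102901665, - strand), the hyaluronan receptor, was at 1013 CPM (965 to 1063) and 1778 CPM (1701 to 1858), 1.75-fold higher (log2 0.81, 0.72 to 0.91), and 58.1% and 79.5% of thinned cells held a UMI. Neither gene's intervals overlapped between the libraries. In core cells the ratios were 1.74-fold for both.

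The Stfa2l1 difference went with the mitochondrial share of the cells. Among core neutrophils under 1% mitochondrial UMIs, 210 control and 369 inhibitor cells, Stfa2l1 was at 1068 and 1130 CPM, with a log2 ratio of 0.08 (-0.09 to 0.26). Between 1% and 5% it was at 611 and 1395 CPM, and above 5% at 450 and 1640 CPM in 165 and 42 cells. Control cells thus had less Stfa2l1 the higher their mitochondrial share, and inhibitor cells did not. Cd44 was higher in the inhibitor library in all 3 ranges, with log2 ratios of 0.65, 0.72 and 0.94. The part of RNA quality in either difference was not tested.

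The other 4 members were lower and were found in few cells. Siglecf (ENSMUSG00000039013, chr7:43351341-43359531, + strand) was at 73.5 CPM (61.0 to 87.9) from 120 UMIs in control and 17.7 CPM (10.8 to 27.3) from 20 UMIs in inhibitor cells, 4.15-fold lower (log2 -2.05, -2.82 to -1.36). At 1000 UMIs per cell, a Siglecf UMI was present in 7.17% (5.37 to 9.35) of the control neutrophils and in 1.90% (0.915 to 3.47) of the inhibitor neutrophils. Unthinned, these were 86 cells (12.2%) and 18 cells (3.27%). No T cell or B cell of either library held one, 0 of 2093 thinned control T cells allowing a share of up to 0.143%.

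Cdkn1a (ENSMUSG00000023067, chr17:29090976-29100727, + strand) encodes p21, which blocks cyclin-dependent kinases and is induced by p53 and by differentiation. It was at 126 CPM (109 to 144) in control and 54.0 CPM (41.3 to 69.3) in inhibitor cells, 2.33-fold lower (log2 -1.22, -1.66 to -0.80). Of the 61 inhibitor UMIs, 42 came from the gated cells that were not core. Core neutrophils held 115 CPM and 21.5 CPM from 19 UMIs, with a log2 ratio of -2.41 (-3.18 to -1.72). With no doublets removed the gated log2 ratio was -0.47 and no longer reached 1.5-fold.

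Bhlhe40 (ENSMUSG00000030103, chr6:108660629-108666925, + strand), a transcriptional repressor of the clock and hypoxia response, was at 159 CPM (140 to 179) and 46.0 CPM (34.4 to 60.3), 3.45-fold lower (log2 -1.79, -2.24 to -1.35). In core cells it was at 174 and 35.1 CPM. Scimp (ENSMUSG00000057135, chr11:70790932-70812586, - strand), a membrane adaptor for Toll-like receptors and MHC class II, was at 69.2 CPM (57.1 to 83.2) and 15.0 CPM (8.76 to 24.1). The 17 inhibitor UMIs of Scimp were in 4 cells, of which the top 2 held 15. Core cells had 98 Scimp UMIs in the control and 2 in the inhibitor library, a log2 ratio of -4.96 (-8.03 to -3.07). For all 4 genes the intervals of the libraries were apart in both sets of cells.

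All 4 were also lower at a low mitochondrial share. Below 1%, Siglecf had a log2 ratio of -1.21 (-2.25 to -0.22), Bhlhe40 of -2.43 (-3.27 to -1.66) and Scimp of -5.06 with 23 UMIs against 1. Cdkn1a was at 47.0 and 22.8 CPM there, with an interval of the log2 ratio from -2.14 to 0.01. Control levels of all 4 were highest above 5% mitochondrial UMIs, at 176 CPM for Cdkn1a, 110 for Siglecf, 225 for Bhlhe40 and 104 for Scimp.

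Some cells held UMIs of several low members. Of thinned control neutrophils, 22.8% (19.7 to 26.1) held a UMI of at least 1 of the 4 genes and 5.88% (4.25 to 7.90) of at least 2. In the inhibitor library these shares were 7.98% (5.82 to 10.6) and 0.380% (0.0461 to 1.37). Each gene was seen in fewer inhibitor cells, which lowers both shares, and whether the genes share cells beyond that was not tested. No cell of either library held all 4 after thinning. Core cells gave 23.3% and 6.99% for at least 1 gene.

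Control neutrophils with a Siglecf UMI formed a distinct profile. They were 86 cells with a median of 2101 UMIs, against 619 cells with 1983 UMIs, so depth was similar. Retnlg was at 495 CPM in cells with Siglecf and 6239 CPM in cells without, 12.6-fold lower, and Stfa2l1 at 118 and 689 CPM. Cdkn1a was at 499 and 69.7 CPM, 7.16-fold higher, Bhlhe40 at 353 and 130 CPM, and Scimp at 212 and 47.9 CPM. Cxcr2 was at 1055 and 1199 CPM and Cxcr4 at 1102 and 966 CPM, with intervals of the log2 ratio that spanned 0. Cxcr2 is a gate gene, and over the whole neutrophil cluster, gated or not, it was at 1109 CPM with and 1357 CPM without Siglecf, with a log2 ratio of -0.29 (-0.49 to -0.10). Ly6g, the classical surface marker of mouse neutrophils, had 0 UMIs in cells with Siglecf and 68 in cells without. Alb, a hepatocyte gene that reaches other cells as free RNA, was at 1262 and 1335 CPM.

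**Figure D2:**
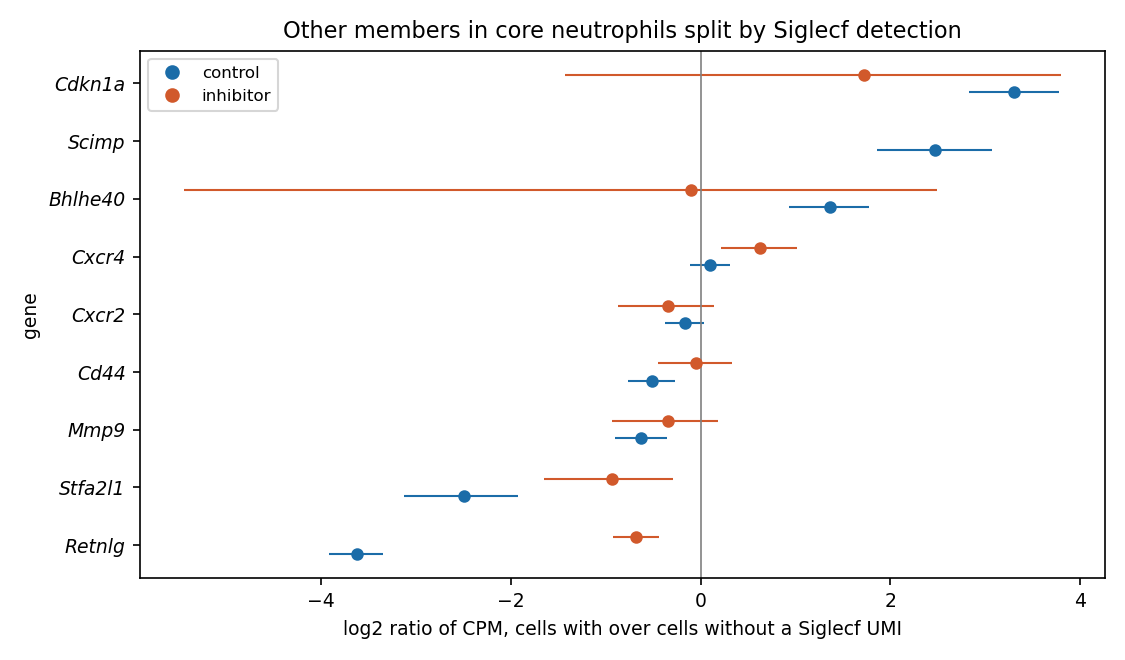
Log2 ratio of CPM in core neutrophils with a Siglecf UMI over those without, for the other members, in the control (blue, 81 and 598 cells) and inhibitor (orange, 18 and 506 cells) libraries, with exact 95% intervals for counting error. Control Cdkn1a lies at 3.30 and control Retnlg at -3.62, and Scimp has no inhibitor point because no inhibitor cell with Siglecf held a Scimp UMI.

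The 18 inhibitor cells with a Siglecf UMI shared only part of the control profile. Retnlg was at 4842 CPM in them and 6122 CPM in the 532 others, and Cdkn1a at 65.9 CPM from 2 UMIs and 53.6 CPM. Ly6g had 4 UMIs in these 18 cells. Cxcr4 was at 1845 and 985 CPM. The chemokine gene Ccl3 was higher with Siglecf in both libraries, at 1746 and 628 CPM here and at 3387 and 1404 CPM in the control. In core cells the log2 ratio of Retnlg, with over without Siglecf, was -3.62 (-3.91 to -3.34) in the control and -0.68 (-0.92 to -0.44) in the inhibitor library, intervals that lie apart.

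Ranked by the interval bound nearest to no change, the 10 genes highest in control cells with Siglecf included Cxcl10, Ltc4s, Cdkn1a, Rgs10, Bri3bp, Egr3, Scimp, Rgs1 and Pou2f2. Cxcl10, an interferon-induced chemokine, was at 1154 and 126 CPM. Ltc4s, the synthase of leukotriene C4, was at 353 and 35.9 CPM. All 10 were also at least 1.5-fold higher in core cells with Siglecf. The lowest were Jchain, Retnlg, Ly6c2, Mmp8, H2-Aa, H2-Eb1, C1qb, Mzb1, H2-Ab1 and Txndc5. Of these, Retnlg, Ly6c2 and Mmp8 were at least 1.5-fold lower in core cells too. The remaining 7, known from plasma cells, antigen-presenting cells and macrophages, were not seen to be 1.5-fold lower among core cells. For Mzb1 and Txndc5 this cannot be judged, with 0 UMIs in core cells with Siglecf and 3 and 5 in those without. Siglecf detection chose these cells, so the ranking is a description of them.

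Cells in which no Siglecf UMI was seen can still express the gene, as the 86 gated control cells with a UMI held only 120 in all. In core neutrophils without a Siglecf UMI, 598 and 506 cells, Cdkn1a was at 53.7 CPM in control and 19.9 CPM in inhibitor cells, 2.70-fold lower (log2 -1.43, -2.29 to -0.64). Bhlhe40 was at 145 and 35.2 CPM and Scimp at 44.6 and 2.35 CPM. Retnlg was nearly level there, at 7274 and 7735 CPM.

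The gate itself excluded part of this population. Cells of the neutrophil cluster that passed no other gate were sorted by their S100a8 plus S100a9 UMIs, and fewer than the 20 that the gate demands were found in 14.5% (12.1 to 17.1) of the 801 in the control and in 4.20% (2.68 to 6.23) of the 548 in the inhibitor library. Just outside the limit, at 10 to 19 UMIs, Siglecf was at 152 CPM in 41 control cells, and just inside, at 20 to 49 UMIs, at 149 CPM in 100 control cells. Retnlg, a gate gene, was at 482 and 914 CPM on these sides. The Siglecf intervals of these neighbouring ranges, 75.6 to 271 and 98.9 to 215, overlapped.

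Over the whole range the control library showed opposite courses. Siglecf was at 226, 152, 149, 121, 98.4 and 32.0 CPM from 0 to 9 S100 UMIs up to 200 or more, Retnlg at 593 CPM at the lower end and 13236 CPM at the upper, and Stfa2l1 at 218 and 1164 CPM. Cdkn1a was at 374 and 65.7 CPM at these ends and Scimp at 172 and 12.4 CPM. Cxcr4 was at 1481 and 767 CPM. S100 UMIs and the members are parts of the same total, and what that adds to these courses was not tested. In the inhibitor library the 2 lowest ranges held only 14 and 9 cells and are given for completeness. From 20 S100 UMIs up, inhibitor Siglecf was at 51.3, 47.1, 29.9 and 10.3 CPM from 3, 5, 7 and 5 UMIs. These values are below those of the control, but the intervals of the libraries overlapped in all of these ranges except that from 100 to below 200 S100 UMIs. Cd44 ran the other way between libraries, from 787 to 1334 CPM in the control and from 2396 to 1711 CPM in the inhibitor library over these 4 ranges. Retnlg, nearly level as a sum over gated cells, was not level within them. It was at 914, 1234, 2558 and 13236 CPM in the control and at 2447, 2310, 4307 and 10997 CPM in the inhibitor library. Inhibitor cells were thus higher from 20 to below 200 S100 UMIs and lower from 200 up. The ranges count S100 UMIs per cell without regard to depth, and inhibitor cells were shallower in all 4 of them. In the range from 20 to 49 their median was 1313 UMIs, against 1811.5 in the control. What depth adds to the differences between libraries along this axis was not tested.

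**Figure D3:**
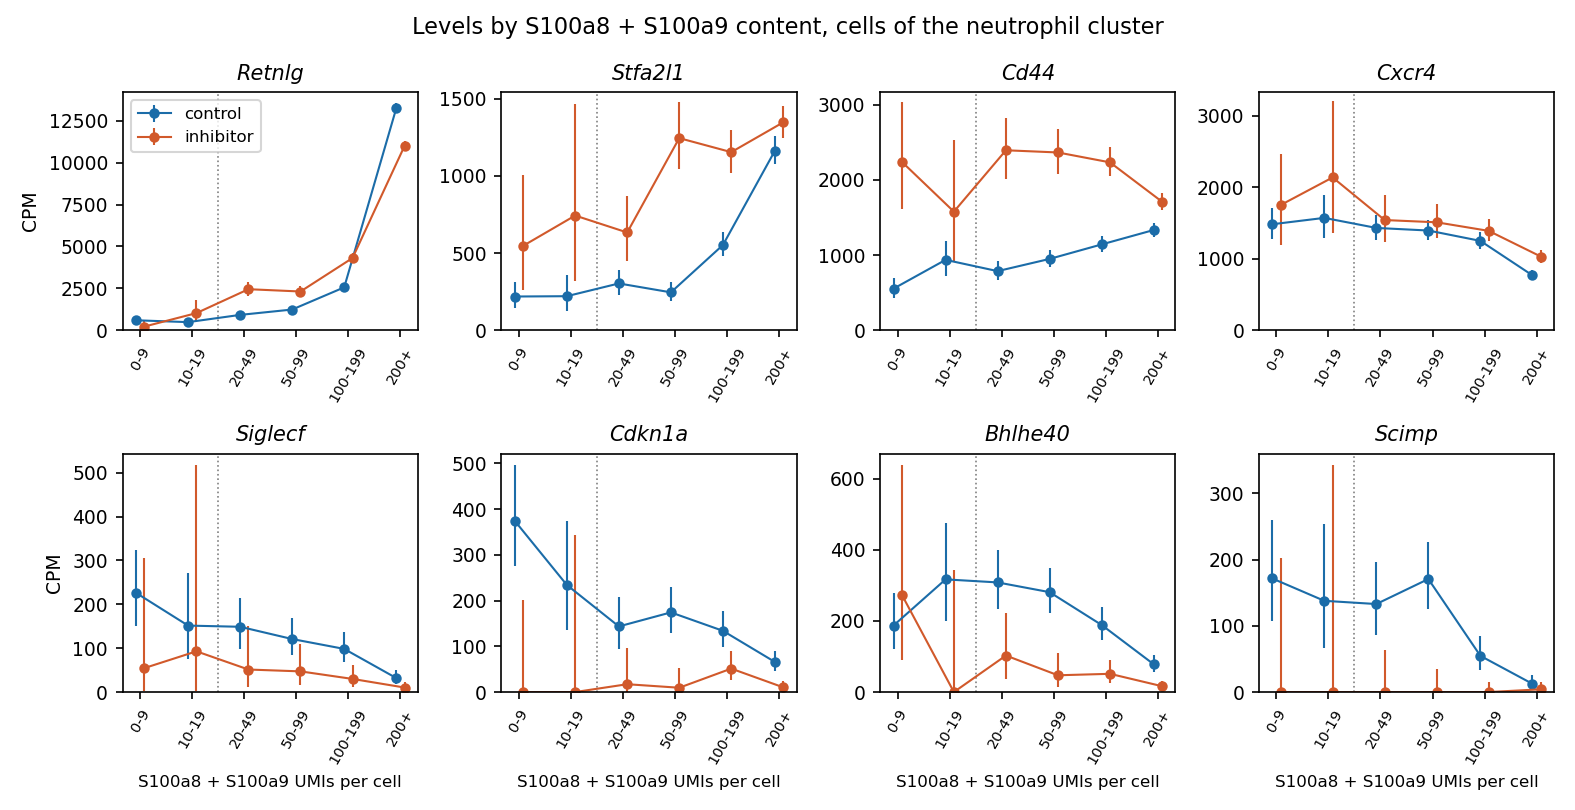
Levels in CPM of 8 members in cells of the neutrophil cluster by their S100a8 plus S100a9 UMIs, for the control (blue) and inhibitor (orange) libraries, with exact 95% Poisson bars and a dotted line at the gate limit of 20 UMIs. Control Siglecf runs from 226 CPM at the left to 32.0 CPM at the right while control Retnlg runs from 593 to 13236 CPM.

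Shares of cells differed along the same axis. Cells with 200 or more S100 UMIs were 31.3% (28.1 to 34.7) of the control and 46.2% (41.9 to 50.4) of the inhibitor cluster, and cells under 50 were 27.0% (23.9 to 30.2) and 12.4% (9.77 to 15.5). The cluster cells that failed the gate, 122 control and 24 inhibitor cells, had Siglecf at 203 CPM (147 to 274) and at 65.1 CPM from 2 UMIs, and Cdkn1a at 321 CPM from 68 UMIs against 0 UMIs.

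Across the marker-defined cell types with at least 50 cells, 5 members were nearly confined to neutrophils and 5 were not. Cxcr2, Retnlg, Mmp9, Stfa2l1 and Siglecf had at most 8.46 CPM in any other type of that size in either library. The highest of these outside neutrophils were Cxcr2 at 8.46 CPM in control nonclassical monocytes and Siglecf at 8.32 CPM, from 5 UMIs, in inhibitor conventional dendritic cells 2. Below the limit, the 12 control and 13 inhibitor basophil or mast cells had Cxcr2 at 185 and 295 CPM from 8 and 11 UMIs. Siglecf was at 80.3 CPM from 3 UMIs in these inhibitor cells. Retnlg, Cxcr2 and Mmp9 also served in the gate, so their contrast is partly built in. With Csf3r, Hdc and Il1r2 as the second gate sum, the log2 ratios between libraries of Retnlg, Cxcr2 and Mmp9 were 0.14, -0.02 and 0.09. Those of Stfa2l1, Cdkn1a and Cd44 were 0.70, -1.21 and 0.81. These ratios compare libraries and not cell types, and Csf3r and Hdc are in both gates.

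Cxcr4 was highest in neutrophils of both libraries, with nonclassical monocytes next at 308 and 307 CPM and B cells at 205 and 267 CPM. NK or ILC1 cells, at 67.7 and 65.5 CPM, and control T cells, at 63.4 CPM, overlapped in their intervals. Cd44 was likewise highest in neutrophils. It was at 193 CPM (177 to 209) in control and 667 CPM (657 to 677) in inhibitor classical monocytes and at 409 and 674 CPM in nonclassical monocytes, so it was at least 1.5-fold higher in the inhibitor library in these types as well. The same held in conventional dendritic cells 2 (log2 1.48, 0.95 to 2.02) and B cells (0.73, 0.25 to 1.20). Macrophages, with 25 inhibitor cells, were also higher (1.66, 1.27 to 2.05). Plasmacytoid dendritic cells, 24 and 12 of them, were lower (-1.20, -2.29 to -0.18). T cells were at 106 and 99.4 CPM, and their log2 ratio interval, like that of NK or ILC1 cells, included no change.

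Cdkn1a was higher in the inhibitor library in 3 other myeloid types. It was at 172 CPM (157 to 188) in control and 263 CPM (257 to 269) in inhibitor classical monocytes, at 162 and 252 CPM in nonclassical monocytes, and at 81.5 and 198 CPM in conventional dendritic cells 2. Control neutrophils, at 126 CPM, lay between control macrophages at 102 CPM and control nonclassical monocytes, and their interval of 109 to 144 overlapped both. Inhibitor neutrophils were below all 3 inhibitor myeloid types. Among control types with at least 50 cells the highest level was in the 55 gated hepatocytes, at 299.6 CPM (235 to 377), while the 44 inhibitor hepatocytes held 0 Cdkn1a UMIs. In B, T and NK or ILC1 cells the interval of its log2 ratio spanned 0.

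Among types with at least 50 cells, Bhlhe40 was highest in NK or ILC1 cells, at 209 and 300.2 CPM. It was at 162 and 171 CPM in conventional dendritic cells 2, at 133 and 148 CPM in T cells and at 124 and 167 CPM in nonclassical monocytes, and the 25 control mature dendritic cells, too few for that limit, had 358 CPM. Control neutrophils, at 159 CPM, were level with the dendritic cells within counting error, and inhibitor neutrophils, at 46.0 CPM, were near inhibitor classical monocytes at 31.3 CPM. Under the same limit Scimp was highest in the 251 control macrophages at 166 CPM (147 to 185), with 366 CPM in the 24 control plasmacytoid dendritic cells outside it. It was at 44.9 and 54.3 CPM in B cells and 74.1 and 79.8 CPM in conventional dendritic cells 2, where the intervals of the libraries overlapped. In classical monocytes it was at 46.6 CPM in control and 4.88 CPM in inhibitor cells, 9.56-fold lower. Scimp was thus lower in inhibitor neutrophils and classical monocytes, while its log2 ratio interval in B cells and conventional dendritic cells 2 spanned 0. It was also lower in macrophages, with 25 inhibitor cells (log2 -1.41, -2.24 to -0.69). Lower too were types with fewer than 50 cells, conventional dendritic cells 1 (-1.58, -2.68 to -0.61) and plasmacytoid dendritic cells (-0.97, -1.71 to -0.26). It was higher in NK or ILC1 cells (1.23, 0.21 to 2.34) and, from 2 UMIs in 1 inhibitor cell, in cholangiocyte or tumour epithelial cells. Different cells may pass 1 gate in the libraries, since 361 control and 3291 inhibitor cells passed the classical monocyte gate.

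**Figure D4:**
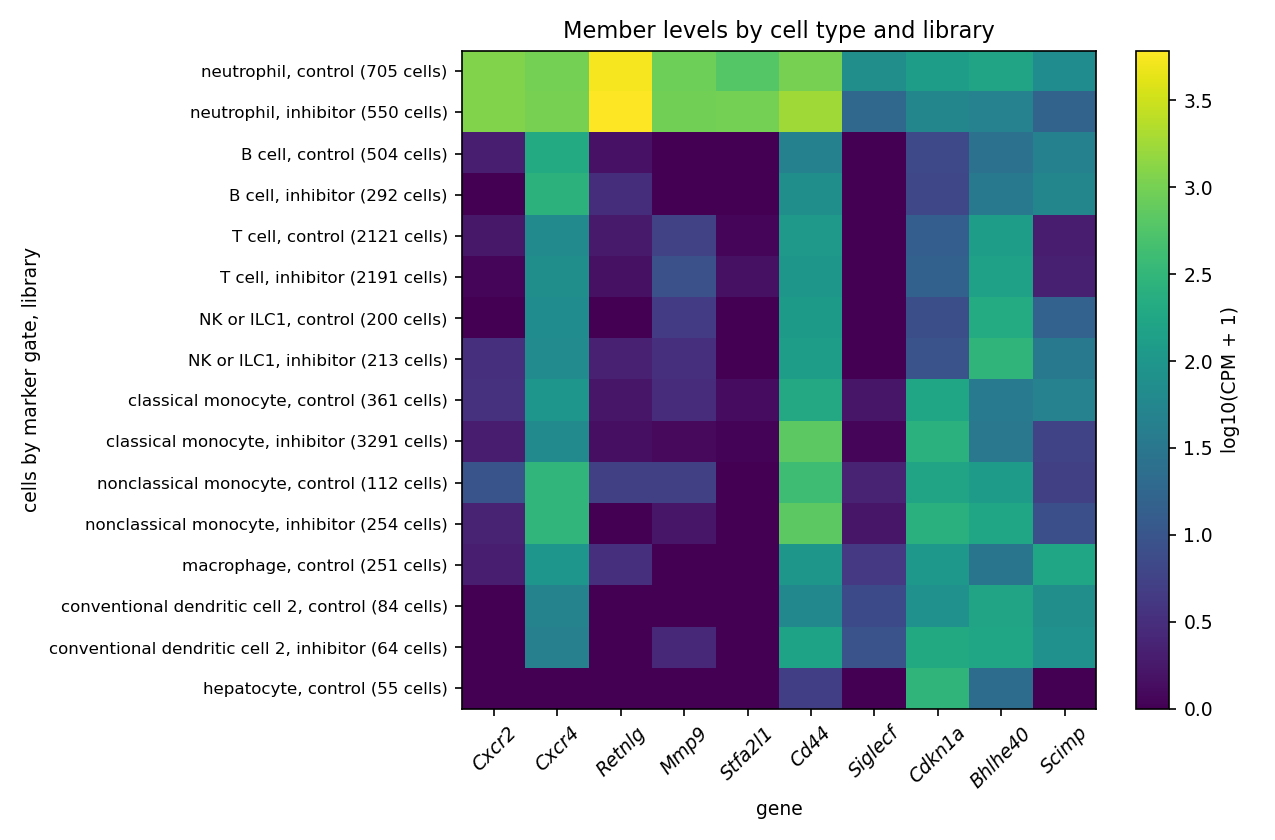
Level of the members, as log10 of CPM plus 1, in each marker-gated cell type with at least 50 cells (rows, by library) for the 10 members (columns). Cxcr2, Retnlg, Mmp9, Stfa2l1 and Siglecf are bright in the neutrophil rows and at most 8.46 CPM elsewhere, while Cdkn1a, Bhlhe40, Scimp, Cxcr4 and Cd44 also appear in lymphoid or other myeloid rows.

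The genes most like each member were sought over these 16 combinations of cell type and library, by Pearson's r of log2(CPM + 10) among 10064 genes. Points of 1 library share its depth and free RNA. Neutrophils are 2 of the points, so for members highest in neutrophils r mostly records which genes neutrophils hold. Cdkn1a, Bhlhe40 and Scimp were not highest there. Cxcr2 was closest to Retnlg (r = 0.998), Cxcr1 and Il1f9. Retnlg was closest to Cxcr1, Asprv1 and Il1f9, Mmp9 to Csf1 (r = 0.995), Ifit1bl2 and Retnlg, and Stfa2l1 to Ly6g (r = 0.998), Chac1 and Retnlg. Siglecf was closest to Il1r2 (r = 0.925), Ceacam10 and Amer2. Cd44 was closest to Rbms1 (r = 0.988), Dhx38 and Tmem164, and Cxcr4 to Mtmr3 (r = 0.933) and Pias1. Cdkn1a was closest to Ifitm3 (r = 0.945), Ltbr and Atox1, Bhlhe40 to Vopp1 (r = 0.869), Nabp1 and Kcnip3, and Scimp to Hps4 (r = 0.866), Icosl and Vipas39.

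Gene lists around the members were also counted, several of which hold members themselves. Of 22 genes of Siglec-F-high tumour neutrophils, all measured, 11 were at least 1.5-fold lower and none was higher in inhibitor neutrophils, with a median log2 ratio of -0.61 against 0.01 for all genes, of which 13.3% were lower. In core cells 10 were lower, where 21.4% of all genes were, with a median of -0.55 against -0.13. Siglecf itself is in the list and among its lower genes in both sets of cells. Ltc4s was at 77.2 and 5.31 CPM and Cstb, which encodes the cathepsin inhibitor stefin B, at 644 and 242 CPM. The chemokine genes Ccl3 and Ccl4 were at 1661 and 658 CPM and at 1788 and 873 CPM. Other genes of the list were level, among them Atf3 at 737 and 735 CPM and Rhob at 466 and 457 CPM, and Ctsb was at 472 and 594 CPM in gated but 316 and 183 CPM in core cells.

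Of 15 genes of mature neutrophils, 14 were measured. Retnlg, Cxcr2, Csf3r, Mmp9 and Hdc of this list also served in the gate, so their levels in both libraries are partly built in. Only the collagenase gene Mmp8 was called in gated cells, higher at 407 and 612 CPM, with a median log2 ratio of 0.19 over the list. Of all genes in gated cells 11.7% were higher and 13.3% lower. In core cells, where 5.71% of all genes were higher, 2 of the list were, Ly6g at 48.3 and 72.5 CPM and Clec4d at 766 and 1149 CPM. Mmp8, at 474 and 705 CPM in core cells, was not past 1.5-fold there. Of 14 genes of neutrophil ageing 12 were measured, none was higher and 1 was lower, the integrin gene Itgax at 89.4 and 39.8 CPM. Of 12 granule genes of immature neutrophils 6 were measured. Chil3 and Cebpe were at least 1.5-fold higher and Ltf lower in gated cells, Cebpe with an interval of the log2 ratio from -0.05 to 1.74 that spans 0, though Chil3, which monocytes also express, was at 102 and 452 CPM in gated but 76.4 and 78.1 CPM in core cells. Elane, Mpo and Ctsg had 3, 1 and 0 UMIs in the inhibitor and 0 in the control neutrophils, while Lcn2, a later granule gene, was at 966 and 1193 CPM. Ltf was at 12.9 CPM from 21 UMIs in the control and 0 UMIs in the inhibitor library, at least 4.85-fold lower with 3 UMIs over the group as the floor.

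The counts that follow are for gated cells, in which 11.7% of all genes were higher and 13.3% lower. In the stefin A family 3 of 5 measured genes were higher, Stfa2l1 among them, and 1 was lower. Stfa1 was at 40.4 and 132 CPM and BC100530 at 2.45 and 26.5 CPM, family members of Stfa2l1 among which reads may be split. Cstb, which lies outside their gene cluster, was the lower one. Of 14 genes induced by p53, the usual inducer of Cdkn1a, 11 were measured, 4 were lower, Cdkn1a among them, and 1 was higher. Gdf15, a stress cytokine, had 74 UMIs in control and 0 in inhibitor neutrophils, at least 17.1-fold lower, and Bax was at 105 and 66.4 CPM. Btg2 and Pmaip1, also p53 targets, were level at 3308 and 3331 CPM and at 321 and 363 CPM.

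Of 13 genes that go with hypoxia and BHLHE40, 11 were measured and 3 were lower, with none higher. Apart from Bhlhe40 these included the lipid droplet gene Hilpda at 34.9 and 20.3 CPM, while the glycolytic Ldha and Pgk1 were among the 8 that differed by less than 1.5-fold. Of 11 partners of SCIMP and Toll-like receptor adaptors, Scimp alone of the 9 measured was called, and its kinase gene Lyn was at 371 and 488 CPM. In the Siglec family Siglecf was the only 1 of 4 measured genes that differed, with Siglece and Cd33 level. Of 11 genes linked to CD44, 10 were measured, of which Cd44 was higher and Spp1, a CD44 ligand, was lower at 79.0 and 50.4 CPM. Of the ligands of both chemokine receptors 3 of 8 were measured and 2 of them, Cxcl3 and Mif, were lower, though neither was past 1.5-fold in core cells, and of the genes that tune receptor signals 2 of 8 measured were higher and 1, Rgs1, was lower at 220 and 142 CPM. Neither of the 2 measured resistin genes was called, nor any of 4 matrix metalloproteinase genes but Mmp8. No basophil or mast cell gene reached the minimum. These lists were written with earlier results in view, and their counts support nothing on their own.

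**Figure D5:**
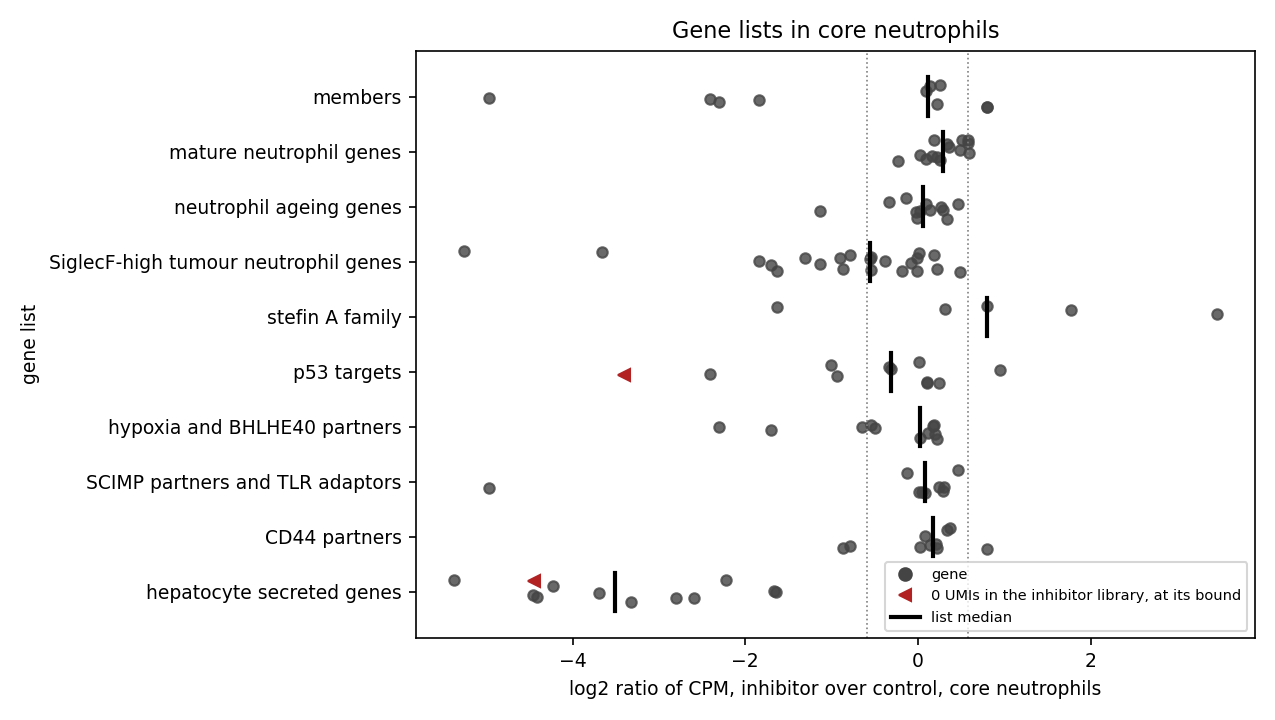
Log2 ratio of CPM, inhibitor over control, in core neutrophils for genes of 10 lists with at least 20 UMIs, 1 point per gene, with the list median as a bar and dotted lines at 1.5-fold in either direction. The Siglec-F-high list has its median at -0.55 and the mature neutrophil list at 0.29, and the hepatocyte secreted genes at -3.51.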

How the data were processed

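The authors deposited raw UMI counts, whole numbers for every gene in every barcode, written by Cell Ranger 5.0.1 per the file headers. The tools named in the submitters' processing notes are Cell Ranger, R 3.0 and Seurat 3, with mm9 as the build. The gene identifiers, however, matched GENCODE M21 on GRCm38 for 30934 of 31053 features (99.6%), and positions printed here are from GRCm38. Aligner settings are not given in the sources used here.

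Barcodes with at least 500 UMIs, at least 300 genes and at most 25% mitochondrial UMIs were kept. That mitochondrial limit was exceeded by 23.2% of control and 8.31% of inhibitor barcodes. Doublets were scored among nearest neighbours against 2 simulated doublets per cell, and 0.8% per 1000 barcodes were removed. The libraries, of 53378693 and 68074929 UMIs in 9493 and 10649 barcodes, were clustered together without integration with scanpy 1.11.5 (2000 variable genes, 30 components, 20 neighbours, Leiden resolution 1, 26 clusters). Cells were typed by sums of marker UMIs. A cell passing exactly 1 gate took that type, and 2730 of 15214 passed several. The neutrophil gate was used as written, with 22 and 23 of its cells passing another gate.

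UMIs were summed per library and type and divided by all UMIs of that type (CPM). Ratios are inhibitor over control with exact conditional binomial 95% intervals, checked on simulated data. A sum of 0 was set to 3 UMIs for a ratio, which then is a bound. With 1 library per group there is no test and no p-value. PCR duplicates are removed by the UMIs, but intervals cover counting error only. A difference of at least 1.5-fold was called, over genes with at least 20 UMIs in both libraries together. Shares of cells with a UMI were compared after thinning each cell to 1000 UMIs, which left out 8 control and 24 inhibitor neutrophils. Named genes were the members, the 3 genes most like each, the 10 highest and 10 lowest in control neutrophils with Siglecf, and examples from 20 lists. A few genes that these rules pick are not reported here. A few other genes named as level or near 0 were chosen after their values were seen. The members, lists and rules were chosen with earlier results of these data known.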

Additional observations from a re-analysis of the deposited data

Results flagged for a closer look

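Among cell types with at least 50 cells in each library, a member differed by at least 1.5-fold in opposite directions in neutrophils and in another type on 4 occasions. Types with fewer cells were not considered. The difference between the types was not tested, and with 1 library per group no test exists. Cdkn1a had a log2 ratio of -1.22 in neutrophils, against 0.61 (0.48 to 0.75) in classical monocytes, 0.64 (0.33 to 0.95) in nonclassical monocytes and 1.28 (0.83 to 1.74) in conventional dendritic cells 2. Those ratios rest on 498 and 7056, on 115 and 375 and on 66 and 119 UMIs. Scimp had a log2 ratio of -2.20 in neutrophils and of 1.23 (0.21 to 2.34) in NK or ILC1 cells, the latter from 12 and 28 UMIs. Core neutrophils, from which cells passing a monocyte or dendritic gate were left out, had a Cdkn1a log2 ratio of -2.41.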

How the results depend on the processing

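No paired analysis was possible because each group has 1 library. Of 16 other processing choices listed at the outset, 15 gave values. Subtraction of free RNA from all gated cells gave none, because the share estimated from hepatocyte genes was 223% in the inhibitor library. With 4 more added after seeing the data, 19 were run, and no called member turned its direction in any of them. The count of higher members was 1 rather than 2 with a mitochondrial limit of 10%, with no doublets removed, and in core neutrophils under 1% mitochondrial UMIs, where in each case Stfa2l1 was at a log2 ratio of 0.57, 0.45 and 0.08. With no doublets removed 3 members were lower rather than 4. Log2 ratios ranged from -2.27 to -1.21 for Siglecf, from -2.82 to -0.47 for Cdkn1a (with free RNA subtracted from core cells its inhibitor level, like that of Scimp, was at the floor of 3 UMIs, which makes -4.63 an upper bound), from -3.49 to -1.36 for Bhlhe40, from -5.24 to -1.89 for Scimp and from 0.65 to 0.93 for Cd44. Among the steady members the sign of Cxcr2 varied, below 0 in 9 settings and above it in 10, and the log2 ratio of Retnlg ranged from -0.08 to 0.47. The neutrophil share was 9.30% and 5.66% with at least 50 S100 UMIs, 12.5% of control cells by cluster alone, 10.004% of them with no mitochondrial limit, and 5.50% in the inhibitor library once 600 genes per cell were required. Depth limits Scimp most, with 2 UMIs in inhibitor core cells.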
